A study of Mus musculus with 6 samples.

Results

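The genes described here are 8 genes of cytosolic RNA sensing, chosen by name from a table of 55098 genes: Ddx58, Ifih1, Dhx58, Mavs, Ddx60, Zc3hav1, Eif2ak2 and Zbp1. They were measured by RNA-seq in cerebellum from male mice on postnatal day 60. One group was wild type for Slc39a14 (WT, animals 1, 3 and 5) and the other was labelled as a knock-out of that gene (KO, animals 2, 4 and 6), with 1 library per animal. Slc39a14 encodes ZIP14, a metal transporter whose loss is used as a model of manganese overload with dystonia and parkinsonism. The sources used here do not give the strain, the part of the gene removed or any treatment. All 8 genes were found in the table. Of these, 7 passed the filter on low counts and were tested among 17142 genes, and Zbp1 did not pass it.

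Cells detect RNA of viral or misplaced origin in the cytosol through a small set of proteins. RIG-I (Ddx58) and MDA5 (Ifih1) are helicases that bind double-stranded or uncapped RNA and pass the signal to MAVS, an adaptor on the outer membrane of mitochondria, which leads to production of type I interferon. LGP2 (Dhx58) is a related helicase without the signalling domains and tunes the other two. Several further proteins act on the RNA or on translation: PKR (Eif2ak2) phosphorylates the initiation factor eIF2alpha, ZAP (Zc3hav1) directs CpG-rich RNA to decay, and DDX60 is a helicase described as a cofactor of RIG-I signalling. ZBP1 binds left-handed double-stranded nucleic acid and can start necroptosis through RIPK3. Many of these genes are themselves induced by interferon, through an element called the interferon-stimulated response element (ISRE).

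The promoters are shown because many such genes are induced by interferon through the ISRE. Whether these motifs bear on the differences between genotypes was not tested. RefSeq promoters (GRCm38.p6, 250 bases before the start site and 50 from it) were matched for 6 of the 8 members by symbol; Dhx58 and Zbp1 were not matched. They were searched on both strands for the ISRE core (GAAA, any 2 bases, GAAA) and for the core of the interferon gamma element (TTC, any 3 bases, GAA). The ISRE core was found in 4 of the 6 matched members, against 3.44% of all 32851 promoters in the table. It occurred once each in Ddx58, Ifih1 and Eif2ak2, and at 2 positions in Ddx60. Windows of 30 bases around each match follow, written 5′ to 3′ along the gene's strand with the matched letters in capitals; in Ddx58 the match is on the opposite strand.
Ddx58, chr4:40239804-40239833, minus strand: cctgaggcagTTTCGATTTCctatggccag
Ifih1, chr2:62646206-62646235, minus strand: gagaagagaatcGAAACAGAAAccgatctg
Eif2ak2, chr17:78882535-78882564, minus strand: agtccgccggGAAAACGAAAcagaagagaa
Ddx60, first match, chr8:61928024-61928053, plus strand: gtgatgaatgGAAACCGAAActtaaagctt
Ddx60, second match, chr8:61928058-61928087, plus strand: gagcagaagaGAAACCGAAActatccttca

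The matches in Ddx60 lay before the start site, at positions -53 to -44 and -19 to -10. Those in Ddx58 (3 to 12), Eif2ak2 (19 to 28) and Ifih1 (33 to 42) lay just after it, counted from 1 at the first transcribed base. The gamma element core was found in 8.3% of all promoters and in 1 of the 6 matched members, Eif2ak2, at -178 to -170, where it did not overlap the ISRE core. Neither core was found in these windows of Mavs and Zc3hav1. For comparison, the 250 bases before the start site are printed whole for Ddx60, which has both ISRE cores in them (capitals), and for Zc3hav1, which has neither core.
Ddx60, chr8:61927837-61928086, plus strand: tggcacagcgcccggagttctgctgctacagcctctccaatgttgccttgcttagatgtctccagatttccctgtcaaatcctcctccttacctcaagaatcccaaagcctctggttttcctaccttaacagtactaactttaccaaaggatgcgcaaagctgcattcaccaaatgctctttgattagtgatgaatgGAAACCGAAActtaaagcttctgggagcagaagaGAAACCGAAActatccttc
Zc3hav1, chr6:38354604-38354853, minus strand: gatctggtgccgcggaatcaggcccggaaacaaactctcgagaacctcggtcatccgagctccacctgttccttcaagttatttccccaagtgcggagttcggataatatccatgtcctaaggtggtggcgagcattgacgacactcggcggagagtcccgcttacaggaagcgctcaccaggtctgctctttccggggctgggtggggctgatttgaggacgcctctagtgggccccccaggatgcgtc

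Each library held 13805997 to 15788135 gene counts, so that 1 count was worth 0.0629 to 0.0733 CPM (counts scaled to library size, with TMM factors). Slc39a14 itself had 572 to 654 counts in the KO and 582 to 646 in the WT libraries (42.3 ± 3.18 and 42.4 ± 1.33 CPM, SD, n = 3 each). The gene count therefore did not check the genotype labels, on which every direction below rests. WT 5 and KO 4 stood apart from the others: a chi-square of counts per degree of freedom was 9.58 between these 2 libraries, 14.3 to 22.4 between either of them and any other, and 5.34 to 8.81 among the other 4. Results of the members whose call turns on WT 5 or KO 4 are therefore also given without them. The listed counts made up 93.8% to 94.9% of the library totals behind the deposited FPKM in KO and 95.8% to 97.7% in WT; the part of this difference in the results was not tested.

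The members separated into genes that stood higher in every KO library and genes that did not. Ddx60, Zc3hav1, Ddx58 and Eif2ak2 had fitted KO levels 8.53, 2.66, 2.56 and 1.91 times those of WT, and in each of them the groups did not overlap. Ifih1 was 1.53 times higher with overlapping groups, and Dhx58 and Mavs lay at 1.10 and 1.06. All 7 tested members had a positive log2 fold change (KO over WT), with a median of 0.93 (Mavs, the nearest to 0, was negative without KO 6); over all tested genes the median was -0.004 and 48.8% were positive. None of the 7 passed an adjusted p of 0.05 over all genes in edgeR's quasi-likelihood test, where 0.0467% of tested genes (8, all higher) did so. At an unadjusted p under 0.05, 5 of the 7 were higher, against 1.69% of all genes tested, and limma-voom likewise called 0 at its adjusted p. Groups without overlap, KO above WT, were seen for 4 of the 7 and for 3.58% of all genes tested; in either direction, 7.26% of genes had groups without overlap. Ddx60 is in each of these counts of higher members and passed the filter through its KO libraries. The members were chosen with earlier results of these data known, so these counts are no independent evidence of direction. The sources used here do not state the filter behind the authors' deposited table. In it, 4 of the 8 had an adjusted p under 0.05. These were Zc3hav1 (authors' adjusted p = 8.57e-06), Ddx60 (1.04e-05), Ddx58 (6.48e-05) and Eif2ak2 (0.00413). Of the 29692 genes with an adjusted p in the authors' table, 0.118% were called higher.

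**Figure D1:**
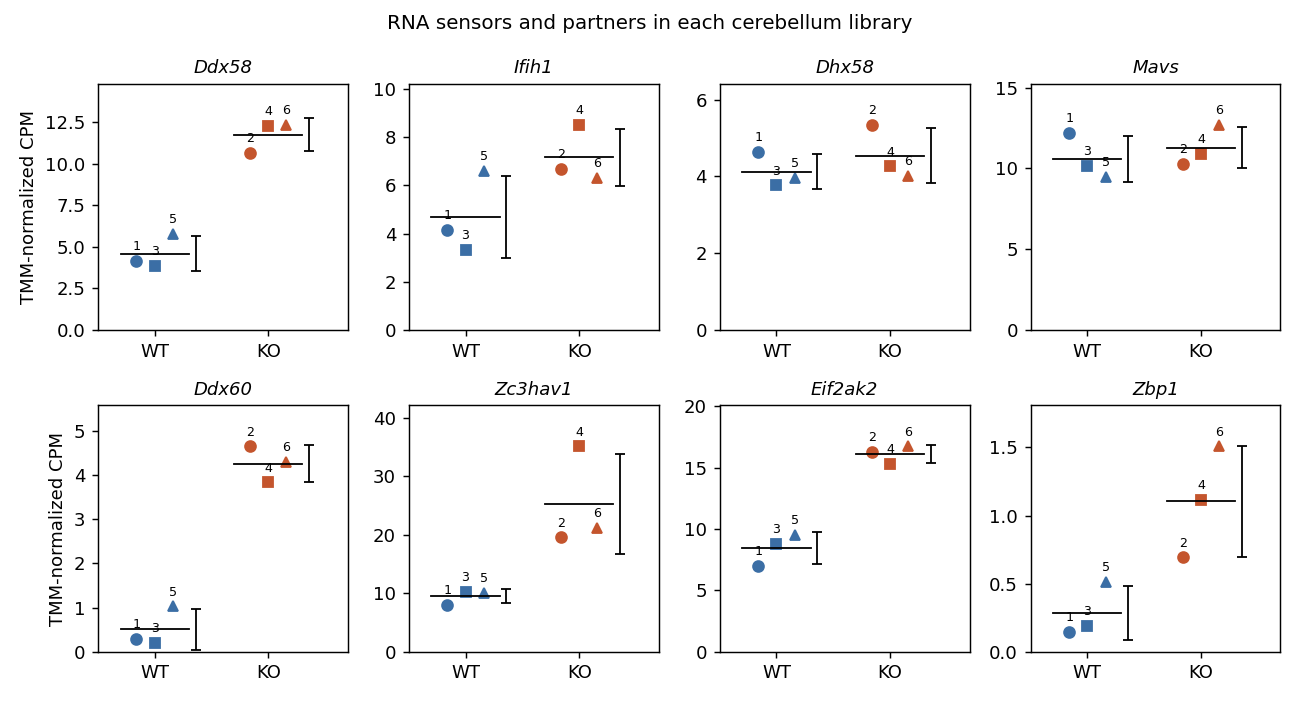
TMM-normalized CPM of each member (vertical axes from 0) in the 3 WT and 3 KO libraries; numbers beside the points are animals, horizontal bars are group means and whiskers 1 SD. In Ddx58, Ddx60, Zc3hav1, Eif2ak2 and Zbp1 every KO point lies above every WT point, and WT 5 is the highest WT library in 5 of the 8 panels.

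The 2 sensors that signal through MAVS had fitted differences of unlike size, with 95% intervals that overlapped. Ddx58 (ENSMUSG00000040296, chromosome 4, 40203773 to 40239828, GRCm38.p6), the gene of RIG-I, was counted 57, 60 and 79 times in WT 1, 3 and 5 and 169, 176 and 172 in KO 2, 4 and 6. In CPM these were 4.14, 3.83 and 5.79 in WT and 10.6, 12.3 and 12.3 in KO. The KO libraries lay close together, and the lowest of them was 1.83 times the highest WT library. The WT mean was 4.59 ± 1.06 CPM and the KO mean 11.8 ± 0.975 CPM (SD, n = 3 each), which gave a log2 fold change of 1.36 (SE 0.20, 95% interval 0.90 to 1.81, edgeR adjusted p = 0.0791). The fold change stood at rank 82 and the unadjusted p at rank 13 of the 17142 genes. Without WT 5 it was called, with a log2 fold change of 1.56 (edgeR adjusted p = 0.0189); in each of the 5 other fits that left out 1 library its adjusted p lay above the threshold.

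Ifih1 (ENSMUSG00000026896, chromosome 2, 62595798 to 62646255), the gene of MDA5, was counted 57, 52 and 90 times in WT and 106, 122 and 88 times in KO. The levels were 4.14, 3.32 and 6.60 CPM in WT 1, 3 and 5 and 6.67, 8.52 and 6.32 CPM in KO 2, 4 and 6. WT 5 thus lay above KO 6 and just below KO 2, and KO 4 stood clear of it. Its log2 fold change of 0.62 had an SE of 0.27 (95% interval 0.01 to 1.22, edgeR adjusted p = 1.0, unadjusted p = 0.0462). Without WT 5 it was 0.95 (edgeR adjusted p = 0.518), and without WT 3 it was 0.42.

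The difference between the 2 sensors was examined within each library. The log2 ratio of Ifih1 to Ddx58, from CPM plus a pseudocount of 0.5, was 0.00, -0.18 and 0.17 in WT 1, 3 and 5 and -0.63, -0.50 and -0.91 in KO 2, 4 and 6. Gene length cancels in the comparison of these ratios between groups. The ratio was lower in every KO library, with a difference of -0.68 (exact two-sided permutation p = 0.1, Benjamini-Hochberg 0.1 over 3 ratios). This p is the smallest that 3 against 3 libraries allow, so that the test could not pass 0.05.

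The regulator LGP2 and the adaptor MAVS had overlapping groups. Dhx58 (ENSMUSG00000017830, chromosome 11, 100694884 to 100704271) had 4.65, 3.76 and 3.96 CPM in the WT libraries 1, 3 and 5, and KO 2, 4 and 6 had 5.35, 4.26 and 4.02 CPM. KO 2 was the highest library and the other 2 KO libraries lay within the WT range. Its log2 fold change of 0.14 had an SE of 0.22 (95% interval -0.35 to 0.63, edgeR adjusted p = 1.0), so that a fold of 1.55 lay at the upper end of the interval. Dhx58 shares bases with the antisense gene Dhx58os, with WT counts of 16, 17 and 28 and KO counts of 21, 24 and 29, beside 54 to 64 and 56 to 85 for Dhx58. No source used here states the strand setting of the counting, and the count of Dhx58 is uncertain to that extent.

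Mavs (ENSMUSG00000037523, chromosome 2, 131234063 to 131248025) had 12.2, 10.1 and 9.46 CPM in the WT libraries 1, 3 and 5, and KO 2, 4 and 6 had 10.3, 10.9 and 12.7 CPM. The 2 groups covered nearly the same range. Its log2 fold change of 0.09 had an SE of 0.17 (95% interval -0.29 to 0.46, edgeR adjusted p = 1.0). It was -0.0036 without KO 6, so that no direction is given for Mavs.

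Both genes were also set against Ddx58 within each library. The log2 ratio of Dhx58 to Ddx58 was 0.15, -0.02 and -0.50 in WT and -0.93, -1.43 and -1.51 in KO, a difference of -1.16 (exact permutation p = 0.1, the smallest possible). The log2 ratio of Mavs to Ddx58 was 1.45, 1.30 and 0.66 in WT and -0.05, -0.17 and 0.04 in KO, a difference of -1.20 (exact permutation p = 0.1). These ratios share Ddx58 as denominator. Since Dhx58 and Mavs themselves lay near 0, they restate the difference of Ddx58 and are not separate results.

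Ddx60 (ENSMUSG00000037921, chromosome 8, 61928087 to 62038244) had the largest fold change of the tested members. Its counts were 4, 3 and 14 in WT 1, 3 and 5 and 74, 55 and 60 in KO 2, 4 and 6, or 0.290, 0.191 and 1.03 CPM against 4.65, 3.84 and 4.31 CPM. The transcript was near the limit of detection in WT 1 and WT 3, and even the lowest KO library was 3.74 times the highest WT library. The WT mean was 0.503 ± 0.456 CPM and the KO mean 4.27 ± 0.409 CPM (SD, n = 3 each), with a log2 fold change of 3.09 (SE 0.48, 95% interval 2.02 to 4.17, edgeR adjusted p = 0.0872). This fold change was at rank 9 of all tested genes. Ddx60 passed the filter through its KO libraries, since WT 1 and WT 3 had under 5 counts. The value depended on WT 5: without that library the log2 fold change was 4.12 (edgeR adjusted p = 0.00361), and without WT 3 it was 2.69 (edgeR adjusted p = 0.241).

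Zc3hav1 (ENSMUSG00000029826, chromosome 6, 38305286 to 38354603), the gene of ZAP, was the member with the widest spread in KO. WT 1, 3 and 5 had 8.06, 10.2 and 10.1 CPM, and KO 2, 4 and 6 had 19.6, 35.1 and 21.1 CPM. KO 4 stood above the other KO libraries, and each of these lay well above the WT range. Its log2 fold change of 1.41 had an SE of 0.23 (95% interval 0.90 to 1.93, edgeR adjusted p = 0.114). Without KO 4 it was 1.11 (edgeR adjusted p = 0.0692), and with WT 5 and KO 4 both left out it was 1.15 (edgeR adjusted p = 0.0275). With a term for those 2 libraries in the model it was 1.37 (edgeR adjusted p = 0.00647).

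Eif2ak2 (ENSMUSG00000024079, chromosome 17, 78852564 to 78882573), the gene of PKR, had 6.97, 8.81 and 9.54 CPM in the WT libraries 1, 3 and 5, while KO 2, 4 and 6 had 16.3, 15.3 and 16.7 CPM. The KO libraries lay close together and above the WT range. The WT and KO means were 8.44 ± 1.32 and 16.1 ± 0.738 CPM (SD, n = 3 each), with a log2 fold change of 0.93 (SE 0.16, 95% interval 0.57 to 1.29, edgeR adjusted p = 0.154). The adjusted p lay between 0.0855 and 0.674 in the 6 fits that left out 1 library, and was 0.0418 once WT 5 and KO 4 had a term of their own. Eif2ak2 overlaps Gm26637 and an rRNA copy on the opposite strand, which had 13 and 2 counts in all 6 libraries together, beside 1075 for Eif2ak2.

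Zbp1 (ENSMUSG00000027514, chromosome 2, 173206612 to 173218923) was too low for the test. Its counts were 2, 3 and 7 in WT 1, 3 and 5 and 11, 16 and 21 in KO 2, 4 and 6. Every KO library held more than every WT library, with WT 5 the closest. Summed, 48 counts in KO stood against 12 in WT, a ratio per library total of 3.95 whose exact 95% interval, 2.07 to 8.18, covers counting error only. In the authors' deposited table its log2 fold change was 1.97 and its adjusted p was 1.0. The genes of RIPK3 and MLKL, the kinase and the pore-forming protein through which ZBP1 acts, were also too low for the test. Ripk3 had 3 to 4 counts in every library, and Mlkl had 7, 1 and 7 in WT and 9, 16 and 6 in KO.

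**Figure D2:**
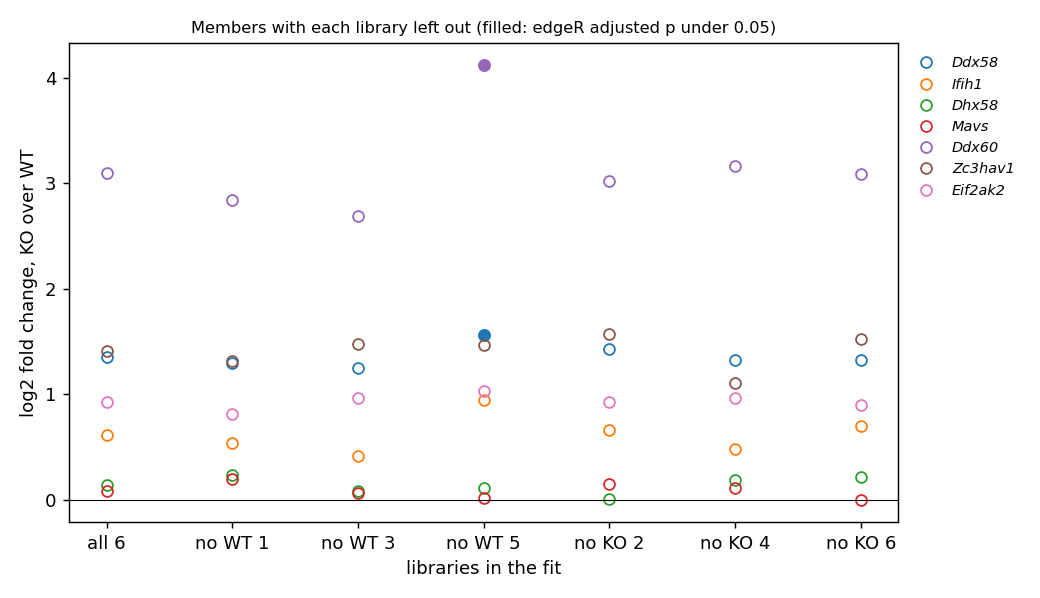
Log2 fold change, KO over WT, of the 7 tested members (colours) with all 6 libraries and with each left out in turn; filled points had an edgeR adjusted p under 0.05. Ddx58 and Ddx60 are filled without WT 5, at 1.56 and 4.12, and Mavs reaches -0.0036 without KO 6.

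Levels were compared between genes by the deposited FPKM, which divides by gene length. In WT, Mavs was the most abundant member per length (3.03 ± 0.391 FPKM, SD, n = 3) and lay above every other member in every library. Eif2ak2 (1.58), Zc3hav1 (1.39) and Dhx58 (1.21) followed, each overlapping its neighbour. Ddx58 (0.624) and Ifih1 (0.550) overlapped each other and lay below Dhx58, and Zbp1 (0.0771) and Ddx60 (0.0557) overlapped at the bottom. In KO the order differed. Zc3hav1 (3.68 ± 1.25), Mavs (3.20 ± 0.367) and Eif2ak2 (2.99 ± 0.136 FPKM) overlapped at the top, Ddx58 (1.58) and Dhx58 (1.32) overlapped in the middle, and Ifih1 (0.833), Ddx60 (0.466) and Zbp1 (0.297) were each separate from the next. The WT libraries thus held more LGP2 than RIG-I transcript per length, and in KO these 2 could not be ordered beyond their spread. The WT order rests on the deposited gene lengths, 3272 bases for Dhx58 and 7050 for Ddx58. It also rests on a Dhx58 count that is uncertain because of Dhx58os.

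**Figure D3:**
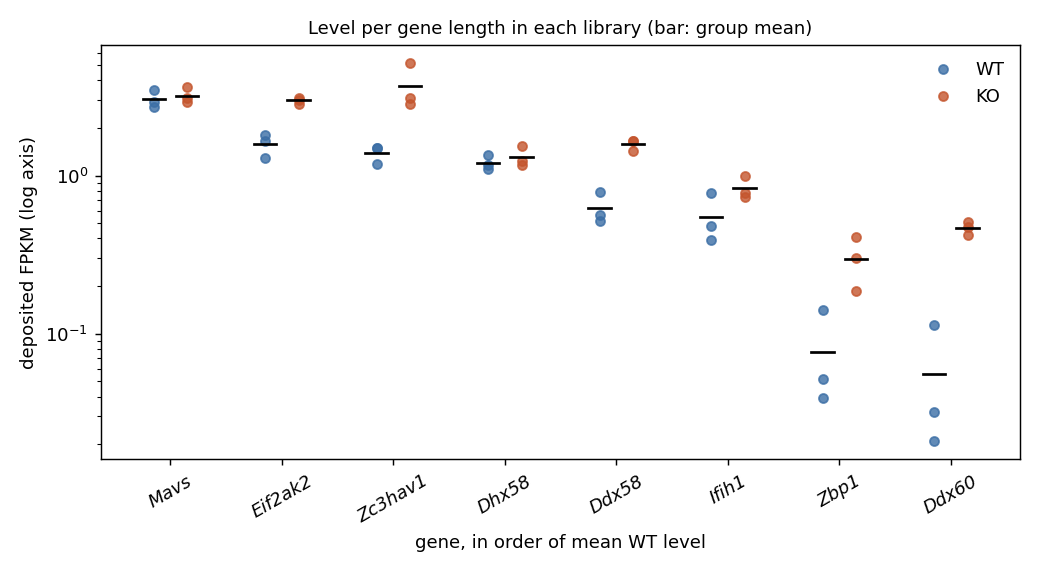
Deposited FPKM (log axis) of each member in the WT (blue) and KO (orange) libraries, in order of the mean WT level; bars are group means. The groups overlap for Mavs, Dhx58 and Ifih1, and Ddx60 goes from 0.0557 to 0.466 FPKM on average.

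The genes whose profile over the 6 libraries was most like that of a member were sought among 13679 protein-coding genes of at least 1 CPM, by the root mean square difference of centred log2 CPM. Parp9 (0.188) and Ifit3b (0.197) were near to Ddx58, Cxcl10 (0.38), Oasl2 (0.423) and Ifi27l2a (0.431) to Ddx60, and Herc6 (0.225), Samd9l (0.254) and Lmx1a (0.257) to Zc3hav1. Eif2ak2 was nearest to Pdzrn4 (0.126), the membrane protein gene Ifitm3 (0.133) and Kif14 (0.148). Ifih1 was nearest to Tlr3 (0.103), which encodes the endosomal receptor of double-stranded RNA, then to Zfp182 (0.135) and Plcg2 (0.148). Tlr3 had a log2 fold change of 0.42 (SE 0.24, edgeR adjusted p = 1.0). Dhx58 and Mavs had flat profiles, as had their nearest genes: Pdss2 (0.0264), Pms2 (0.0373) and Fam69a (0.0497) for Dhx58, and Mnt (0.0274), Tsta3 (0.0488) and Trnau1ap (0.0501) for Mavs. Among the members themselves, Dhx58 and Mavs were the most alike pair (0.212), followed by Ddx58 with Eif2ak2 (0.272) and Ddx58 with Zc3hav1 (0.291).

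Most genes of the signalling chain below the sensors had log2 fold changes near 0. Of 24 genes listed, from TRIM25 through the kinases to the transcription factors and Ifnb1, 23 were tested, 12 were positive, the median log2 fold change was 0.01, and 0 passed in either direction (at an unadjusted p under 0.05, 2 higher and 0 lower, where 1.69% of all tested genes were higher). Those 2 were Irf7, which passed the filter on low counts only with its KO libraries, and Trim25. Irf7, a transcription factor that is itself induced by interferon, was counted 9, 28 and 12 times in WT and 109, 72 and 152 in KO, a log2 fold change of 2.75 (SE 0.41, edgeR adjusted p = 0.0791). Irf7 was called without KO 4 (2.97, edgeR adjusted p = 0.0339), without both WT 5 and KO 4 (2.83, edgeR adjusted p = 0.0236) and with a term for them (2.74, edgeR adjusted p = 0.0120). Trim25, a ubiquitin ligase that acts with both RIG-I and ZAP, was counted 65, 74 and 93 times in WT and 116, 145 and 177 in KO. No KO library reached down to the WT range. Its level was 5.42 ± 1.21 CPM (WT) and 10.04 ± 2.71 CPM (KO; SD, n = 3 each), a log2 fold change of 0.89 (SE 0.25, edgeR adjusted p = 1.0).

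The other members of the chain lay near 0. Rnf135, the ligase Riplet that modifies RIG-I, was at 0.35 (SE 0.30), with 116 counts in KO 2 and 48 to 63 in the other 5 libraries. The kinase gene Tbk1 was at -0.10 (SE 0.11) and the transcription factor gene Irf3 at 0.15 (SE 0.13) on the log2 scale. Of 12 inhibitors of the pathway, all tested, 7 were positive with a median of 0.02 and 0 passed (0 at an unadjusted p under 0.05). The mitochondrial protein gene Nlrx1 was at 0.27 (SE 0.27), the ligase gene Smurf1 at -0.08 (SE 0.14) and the deubiquitinase gene Otud5 at -0.05 (SE 0.11).

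The partners of PKR, ZBP1 and ZAP likewise held no called gene. Of 12 genes of the PKR axis, 5 were positive and 7 negative (median -0.01), and 0 passed. At an unadjusted p under 0.05, 1 was lower: Ddit3, the transcription factor CHOP of the integrated stress response, with WT and KO means of 24.6 ± 0.879 and 19.7 ± 2.55 CPM and a log2 fold change of -0.32 (SE 0.13, edgeR adjusted p = 1.0). Eif2s1, which encodes the substrate of PKR, was at 0.05 (SE 0.14), the activator gene Prkra at 0.03 (SE 0.12), and the inhibitor genes Dnajc3 and Tarbp2 at -0.17 (SE 0.11) and 0.16 (SE 0.14). Adar, the editing enzyme that limits recognition of the cell's own double-stranded RNA, had WT and KO means of 145.5 ± 3.51 and 141 ± 10.4 CPM (difference on the log2 scale -0.04, SE 0.09). Ripk1 and Casp8, which join ZBP1 in cell death signalling, were at 0.23 (SE 0.20) and 0.24 (SE 0.33); of 6 such partners 4 were tested and 0 passed (0 at an unadjusted p under 0.05). Of 11 cofactors of ZAP, 6 were positive, the median was 0.02 and 0 passed (1 at an unadjusted p under 0.05, Trim25). The nuclease gene Khnyn was at -0.04 (SE 0.10), its relative N4bp1 at -0.10 (SE 0.10) and the decapping gene Dcp1a at -0.10 (SE 0.11).

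**Figure D4:**
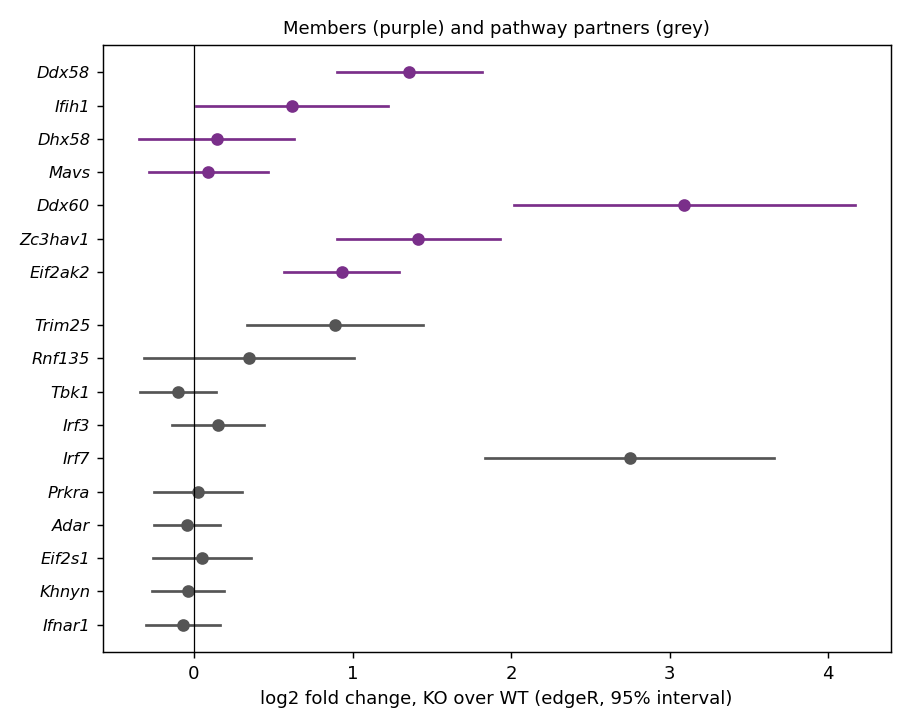
Log2 fold change, KO over WT, with its 95% interval from edgeR, for the 7 tested members (purple) and 10 pathway partners (grey). The intervals of Ddx58, Ddx60, Zc3hav1 and Eif2ak2 lie between 0.57 and 4.17, and those of the partners Irf7 (1.84 to 3.66) and Trim25 (0.33 to 1.44) also lie above 0. The intervals of the members Dhx58 and Mavs and of the 8 other partners include 0, and that of Ifih1 starts at 0.01.

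Helicases that are not members showed no called gene either. Of 11 other RNA helicases, 8 were positive, with a median of 0.01, and 0 passed (0 at an unadjusted p under 0.05). Ddx1, Ddx21 and Ddx6 were at 0.12, 0.11 and -0.12 on the log2 scale (SE 0.10, 0.12 and 0.11). These helicases were more abundant in CPM than Ddx58, Ifih1 and Dhx58, as with Ddx1, whose WT and KO means were 111.1 ± 5.14 and 120.5 ± 8.57 CPM (SD, n = 3 each).

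The interferon genes that were listed were at or near 0, and others were not examined. Of 8 interferon genes listed, 7 (Ifnb1, Ifna1, Ifna2, Ifna4, Ifna5, Ifne and Ifng) had 0 counts in all 6 libraries, which allows a level of up to 0.189 to 0.22 CPM in a library (3 counts), and Ifnk had 0 to 3 counts. The 4 receptor genes were tested and 0 passed (0 at an unadjusted p under 0.05). Ifnar1 had WT and KO means of 64.3 ± 4.52 and 61.3 ± 4.06 CPM (-0.07 on the log2 scale, SE 0.10), Ifnar2 at 0.06 (SE 0.17) and Ifngr1 at -0.11 (SE 0.12).

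Genes known to respond to interferon were higher beside the members. This list of 24 was drawn up with earlier results of these libraries known and is no independent evidence of direction. All 24 were positive with a median of 1.66. Several passed the filter on low counts only with their KO libraries, which favours a positive sign. Among these were Mx1, Oas1a, Ifi44, Irf7 and Usp18, with WT counts of 1 to 2, 1 to 11, 5 to 11, 9 to 28 and 7 to 15. In all, 5 were called higher: Oasl2, Ifit1, Ifit3, Usp18 and Ifi27, by 2.96, 2.60, 1.71, 2.77 and 1.60 in log2 units (edgeR adjusted p = 0.0124, 0.0126, 0.0237, 0.0237 and 0.0126, in that order). None of these 5 calls held without WT 1 (edgeR adjusted p up to 0.157) or without WT 3 (0.0570 to 0.132). Ifit3, Usp18 and Ifi27 also missed the threshold without KO 2 (edgeR adjusted p = 0.125, 0.115 and 0.0534), as did Ifit3, Usp18 and Ifit1 without KO 6 (0.113, 0.113 and 0.0553) and Usp18 by limma-voom (0.0510). The lowest value of the list was 0.15, for Stat2, and the members Ddx60 (3.09), Zc3hav1 (1.41), Ddx58 (1.36), Eif2ak2 (0.93) and Ifih1 (0.62) lay above it. Dhx58 and Mavs (0.14 and 0.09) lay near Stat2, within the standard errors of these values. Of the 24 genes, 16 were matched to a promoter, and the ISRE core was found in 8 of these 16, against 3.99% of all 27025 genes with a promoter.

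**Figure D5:**
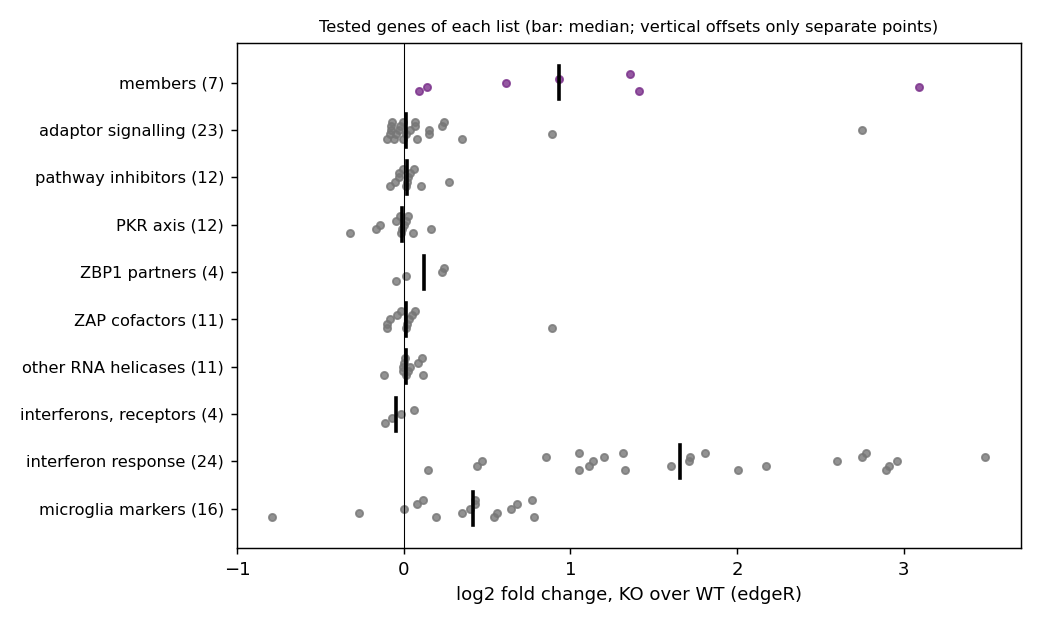
Log2 fold change, KO over WT, of every tested gene in the members and in 9 gene lists (number tested in brackets); black bars are medians. The medians of the signalling, inhibitor, PKR and ZAP lists lie between -0.01 and 0.02, and that of the interferon response genes is 1.66.

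Markers of cell types that carry these sensors were measured in the same libraries. In bulk tissue, a difference in the number of cells of a type and one in RNA per cell cannot be told apart. The 16 microglia markers were all tested, 14 were positive (median 0.41) and 0 passed. At an unadjusted p under 0.05, 5 were higher and 1 lower, where 1.69% of all tested genes were higher. Their summed level was 142.6 to 152.5 CPM in WT and 161.6 to 203.6 CPM in KO, with no marker at 0 counts in all libraries. The summed level of 14 endothelial and mural markers was 562.7 to 602.7 CPM in WT and 605.4 to 684.8 CPM in KO, and none was at 0. Of these, 11 of 14 were positive (median 0.12), with 0 called and 0 at an unadjusted p under 0.05. Both sums were higher in every KO library, the endothelial and mural sum only narrowly (602.7 CPM in the highest WT and 605.4 in the lowest KO library). Of single genes tested, 3.58% had every KO library above every WT library. The part of these cell types in the differences of the members was not tested.

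Markers of choroid plexus and meninges were also higher on balance in KO, with overlapping groups. Choroid plexus markers summed to 1410, 605 and 457 CPM in WT 1, 3 and 5 and to 2288, 3353 and 1073 CPM in KO 2, 4 and 6 (16 of 16 positive, median 1.35, 0 called, 15 at an unadjusted p under 0.05). KO 4, the highest KO library for Zc3hav1 and Ifih1, was also the highest here. KO 6, the highest KO library for Ddx58, Mavs, Eif2ak2 and Zbp1, was the lowest KO library here. KO 2, the highest for Dhx58 and Ddx60, lay between them. Meningeal fibroblast markers summed to 508 to 878 (WT) and 874 to 986 CPM (KO; 12 of 12 positive, median 0.23, 0 called). Erythroid markers summed to 45.1 to 74.4 CPM in WT and 47.3 to 65.0 CPM in KO. Of 15 markers of other leukocytes only Mrc1 and Cd163 were abundant enough to test; the list summed to 8.49, 7.59 and 14.3 CPM in WT 1, 3 and 5 and to 7.99, 11.8 and 11.5 CPM in KO 2, 4 and 6. WT 5, the highest WT library for Ddx58, Ifih1, Ddx60, Eif2ak2 and Zbp1, was thus also the highest for these leukocyte genes, and the part of these cell types in the values of the members was not tested. The 12 cerebellar neuron markers (median 0.01, summed level 10250 to 10870 CPM in WT and 10290 to 11570 CPM in KO), the 10 astrocyte and Bergmann glia markers (median 0.06) and the 10 oligodendrocyte markers (median 0.07) were present in every library and held 0 called genes and 0 genes with an unadjusted p under 0.05.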

How the data were processed

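Counts per gene for 6 cerebellum libraries were used as deposited by the authors, with no normalization; the deposited FPKM values are these counts over gene length and a library total. The submitters' processing notes name HISAT2, DESeq2 and GRCm38.p6; no source used here names the counting program. The authors' group means (a deposited signal made from normalized counts) were not analysed, and the authors' log2 fold changes and p-values are quoted only as theirs. Groups came from the sample titles, 1 animal per library.

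Counts were tested with edgeR 4.0.16 (quasi-likelihood, TMM, filterByExpr, Benjamini-Hochberg over all tested genes, called under 0.05; R 4.3.3). Each SE was obtained by dividing the log2 fold change by the root of its F value. Likeness of profiles used log2 CPM with a prior count of 2. Alternatives used DESeq2 1.42.0, limma 3.58.1 (voom), other normalizations and filters, and libraries left out. Of these steps, only the edgeR fit was tried on simulated data. Ratios used exact permutation tests (scipy 1.17.1).

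The 8 members, the 17 gene lists, the motifs and the rule for named genes were chosen with earlier results of these data known. The rule names every member, the called genes of a list (failing these, its 3 lowest p), 12 partners and the 3 most alike genes, of which 1 for Ddx58 is not reported here. Stat2, Mrc1 and Cd163 were named after their values were seen.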

Additional observations from a re-analysis of the deposited data

How the results depend on the processing

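No paired analysis was possible because the groups share no animal number. Of 112 values of the 7 tested members under the alternatives, 94 kept direction and side of the threshold, 17 passed it, and 1 reversed. The 8 genes called became 142 without the low-count filter, 38 by DESeq2, 40 with WT 5 and KO 4 both left out, 34 with a term for these 2 libraries, and 0 to 28 with single libraries left out (0 without WT 1 or WT 3, 28 without WT 5, 2 without KO 2, 17 without KO 4, 3 without KO 6). The 0 members called became 4 without the filter, 4 by DESeq2, 3 with both libraries left out, 4 with the term, and 0 to 2 with single libraries left out. The 4 were Ddx58, Ddx60, Zc3hav1 and Eif2ak2; the cause was not tested. The ratios to Ddx58 kept their sign: -0.77 to -0.57 for Ifih1, -1.35 to -1.03 for Dhx58 and -1.43 to -1.04 for Mavs with single libraries left out.

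Uncalled genes near 0 reversed. With single libraries left out, log2 fold changes ran from -0.0036 to 0.20 for Mavs, -0.065 to 0.041 for Slc39a14, -0.013 to 0.092 for Prkra, -0.093 to 0.015 for Adar, -0.10 to 0.012 for Khnyn, -0.050 to 0.15 for Eif2s1, -0.017 to 0.58 for Rnf135, -0.19 to 0.045 for Smurf1, -0.12 to 0.015 for Otud5 and -0.051 to 0.18 for Ifnar2. With WT 5 and KO 4 both left out, Slc39a14 was at 0.063, Tbk1 at 0.018, Prkra at -0.040, Eif2s1 at -0.0088 and Ifnar2 at -0.038. Slc39a14 was at 0.014 with library totals only and at 0.0025 without the filter. Zbp1, tested without the filter, was at 1.95 (edgeR adjusted p = 0.351). Low counts limit what can be said of Zbp1 and of Ddx60 in WT.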

Other observations

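Of the 15 leukocyte markers, several had their highest count in WT 5. S100a9, a calcium-binding protein of neutrophils, had 16 counts in WT 5 and 0 to 6 in the other 5 libraries. Cd8a and Cd3e, genes of T cells, had 9 and 6 counts in WT 5, 0 to 5 and 0 elsewhere, and Ly6c2, a gene of monocytes, had 9 and 0 to 2. S100a8 and Ccr2 stood out less, with 6 and 14 counts in WT 5 beside 5 and 11 in KO 4. Other markers of the list did not have their highest count there: Ly6g and Cd3g had 0 counts in WT 5, and Itgax had 1, against 4, 9 and 11 in KO 2, 4 and 6. These genes were chosen after their values were seen, and each is too low for the test. Ddx60 and Zbp1 had 14 and 7 counts in WT 5, against 3 to 4 and 2 to 3 in WT 1 and WT 3.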
